A study of Mus musculus with 3 samples.

Results

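Droplet single-cell RNA-seq assigns each transcript to a cell barcode and counts it as a unique molecular identifier (UMI), and the barcodes of these mouse blastoid libraries fell into a shallow and a deep group. Shallow barcodes were those with 1000 to 3000 UMIs and at least 500 genes, and deep barcodes those with at least 10000 UMIs. Both had at most 20% of their UMIs from mitochondrially encoded (mt-) genes. These limits took 12508 of 18388 deposited barcodes, 8839 shallow and 3669 deep. Apart from the mt- genes the limits named no single gene, but total UMIs and the number of genes found depend on the levels of all genes.

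The study made blastoids, stem cell-built structures that resemble the blastocyst, and profiled their lineages. All 3 libraries came from E14 mouse embryonic stem cells cultured with 10 µM T0901317, an agonist of liver X receptors such as Nr1h2, in medium with 1000 U/mL LIF, a factor that maintains the stem cell state. Cells were seeded at 5 per microwell with 12.5 ng/mL rhFGF4, 0.5 µg/mL heparin, 3 µM CHIR99021 (an inhibitor of GSK3), 5 ng/mL BMP4 and 0.5 µM A83-01 (an inhibitor of TGF-beta receptors), and with 2 µM Y27632, a ROCK inhibitor, on the first day. Blastoids were picked by hand on day 5 and digested for 30 min before capture with 10x 3' v3.1 reagents. The libraries are titled NrESC_Type_I, NrESC_Type_II and NrESC_Type_III, and are called Type I, Type II and Type III here. The labels do not say what sets the types apart, and they name no untreated control. Each type has 1 library, so the shallow and deep sums of a type were paired and the 3 types stood in for replicates. The p-values below therefore concern only the shallow-to-deep difference in these 3 libraries. The test draws each gene's variance partly from all genes tested. Very small p-values thus do not come from a gene's own spread over 3 libraries alone.

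As background, a droplet can capture an intact cell, a damaged cell, a nucleus, a fragment, or only RNA that was free in the cell suspension. The fractions of a cell's RNA differ in where they lie: long noncoding RNAs such as Malat1 stay in the nucleus, mt- transcripts stay inside mitochondria, and messenger RNAs of ribosomal proteins are short and abundant in the cytoplasm. Messenger RNAs of the clustered histone genes are made in S phase and mostly end in a conserved stem-loop instead of a poly(A) tail, and the 10x 3' reagents prime on runs of A. The early embryo's 3 lineages are the epiblast, which forms the embryo proper, the primitive endoderm, which forms the yolk sac, and the trophectoderm, which forms the placenta.

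The stem-loop is shown here because the clustered histone genes were, of the 29 lists examined, the one with the most genes higher in shallow barcodes. A 16-base motif spelled GGNNNTTTNNANNNCC, in which N is any base, was searched on the transcript strand of 1 GENCODE M21 transcript per gene (build GRCm38). A match counted only where its opening GGNNNT was the reverse complement of its closing ANNNCC. Such a match occurred in 54 of 13011 matched genes, or 0.415%. It occurred in 38 of the 56 clustered histone genes tested, in each of these 38 in the 3' untranslated region. The 4 examples below are from histone genes with high levels, at chr13:23739512-23739527 (plus strand), chr13:23621782-23621797 (minus), chr13:23745047-23745062 (minus) and chr13:23581950-23581965 (plus). Capitals mark the motif and lower case its flanking bases.
Hist1h1c: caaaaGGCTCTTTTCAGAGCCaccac
Hist1h1e: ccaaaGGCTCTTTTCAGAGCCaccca
Hist1h3c: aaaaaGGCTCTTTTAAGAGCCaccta
Hist1h4d: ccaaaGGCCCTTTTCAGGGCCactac
Hist1h1c and Hist1h1e encode linker histones, Hist1h3c a histone H3 and Hist1h4d a histone H4. A match is a description of the letters and not evidence of how a transcript ended in these cells.

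The shallow sums held 4837802 UMIs from 3016 barcodes in Type I, 8910792 from 5146 in Type II and 1113175 from 677 in Type III. The deep sums held 78311237 UMIs from 1405 barcodes, 87657018 from 1992 and 20919006 from 272 in the same order. Median UMIs per shallow barcode were 1465, 1562 and 1453, against 52224, 41491 and 71540 per deep barcode. The lowest UMI count deposited was 870, 1252 and 749, so the shallow band of Type II began at 1252 UMIs.

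Some barcode sequences occurred in more than 1 library. There were 127 in all 3 libraries and 134 in a pair of libraries, and the overlap ran mostly between deep barcodes of Type III and shallow barcodes of the other types. Of the 272 deep barcodes of Type III, 128 (47.1%) were shallow barcodes of Type I and 110 (40.4%) were shallow barcodes of Type II. The shallow copies held a median of 1.60% and 1.65% of the UMIs of their deep copies. Across these shared barcodes the log10 UMI counts of the shallow and deep copies had a Pearson r of 0.931 (128 barcodes) and 0.710 (110 barcodes), given as a description. Shared barcodes were 4.64%, 2.58% and 3.40% of the shallow bands of Types I, II and III, and 4.13%, 1.31% and 59.2% of the deep bands. The Type III deep sum therefore changed most when shared barcodes were left out, and results are given with and without them where the call or the direction changed.

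Of 13019 genes tested, 470 (3.61%) were higher and 840 (6.45%) were lower in shallow sums at an adjusted p of 0.05 (edgeR's quasi-likelihood test with library as a block, Benjamini-Hochberg adjustment). At 2-fold or more, 110 (0.845%) were higher and 81 (0.622%) were lower. The median log2 fold change over all tested genes was -0.00, where a positive value means higher in shallow barcodes throughout. Without Type II the counts were 194 higher and 316 lower, with 26 lower by 2-fold, and without Type I 548 were lower. Without shared barcodes they were 186 higher and 343 lower, while leaving shared barcodes out of the shallow band alone kept 1283 of the 1310 calls. A deep band cut at 10000 to 30000 UMIs, with 301, 565 and 67 barcodes, left 14 genes higher and 14 lower. Of the 1310 calls that comparison kept 27, and 45 of the 1232 called genes still tested had the opposite sign. Plain totals in place of TMM scaling moved the median of all genes to -0.14 and gave 180 higher and 1616 lower. Where a list below had 0 calls in a direction, DESeq2 also made 0 calls there, and at an unadjusted edgeR p under 0.05 at most 3 of its genes passed.

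Among genes with at least 50 CPM (counts scaled to a common library total, here with TMM factors) in a band, the 12 most raised genes in shallow barcodes were 4 genes that overlap ribosomal RNA sequence, 7 clustered histone genes and Igf2. Igf2 encodes an imprinted fetal growth factor. It stood at 71.1, 49.3 and 59.4 CPM in the shallow sums of Types I, II and III and at 29.5, 24.1 and 31.2 CPM in the deep sums. Its groups did not overlap, and its log2 fold change was 1.11 (SE 0.0972, adjusted p 4.0e-20). The 12 most lowered genes were Kcnq1ot1, Meg3, mt-Cytb, Hsp90b1, Zfp292, Sox11, Akap9, Tcf4, Ankrd12, Akap12, Ankrd11 and Bod1l. Besides the noncoding, mitochondrial and chaperone genes described below, these encode anchoring proteins of the A-kinase family (Akap9, Akap12), transcription factors (Sox11, Tcf4), a zinc finger protein (Zfp292), the ankyrin repeat proteins Ankrd11 and Ankrd12, and Bod1l, a protein that protects replication forks. The latter 8 genes had log2 fold changes from -0.92 (Zfp292) to -0.80 (Bod1l), and in each of them all 3 shallow sums were below all 3 deep sums. Over all tested genes this separation held for 12.1%, and the reverse separation for 9.09%.

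The 4 genes that overlap ribosomal RNA sequence were the most raised group. Gm42418, Gm26917 and AY036118 lie together on chromosome 17 at a ribosomal RNA repeat fragment (Gm42418 at chr17:39846958-39848788, with AY036118 inside it at chr17:39847113-39848035). Lars2, on chromosome 9, encodes the mitochondrial leucyl-tRNA synthetase and carries ribosomal RNA-like sequence in its last exon. Because these transcripts share sequence with ribosomal RNA and with each other, the split of reads among them is uncertain.

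Gm42418 stood at 109680, 84579 and 65232 CPM in the shallow sums of Types I, II and III and at 12596, 8797 and 6688 CPM in the deep sums. The shallow sums were 8.71, 9.61 and 9.75 times the deep sums, with no overlap (log2 fold change 3.22, SE 0.175, adjusted p 1.0e-39). AY036118 stood at 7795, 8602 and 6175 CPM in shallow sums and at 391, 305 and 252 CPM in deep sums. This was the highest fold change of any gene tested, at 24.0-fold (log2 4.58, SE 0.135, adjusted p 1.1e-75). Lars2 and Gm26917 rose by 3.14 and 2.92 on the log2 scale.

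The 4 genes together took 11.8%, 8.52% and 7.64% of shallow UMIs and 1.38%, 0.979% and 0.778% of deep UMIs. Barcodes between the bands, with more than 3000 and fewer than 10000 UMIs, held 8.12%, 5.25% and 5.63%, so the share fell with depth in every library. All 4 were called with and without shared barcodes, and 3 of 4 were called against the deep band of 10000 to 30000 UMIs, where their median log2 fold change was 1.79 instead of 3.18.

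**Figure D1:**
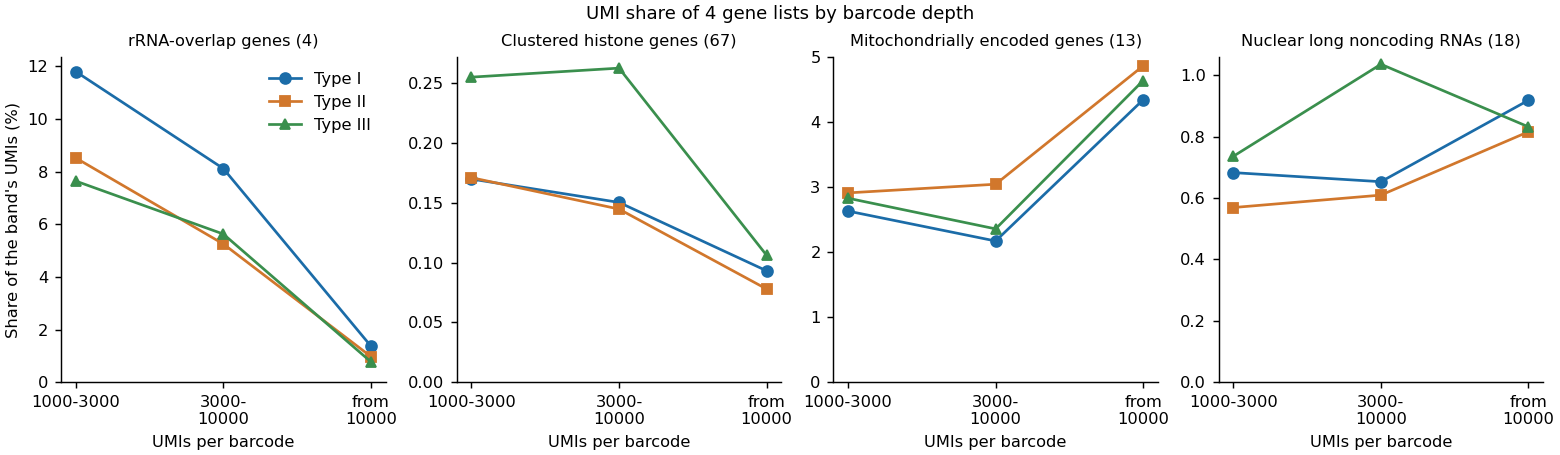
Share of UMIs (y axis, percent of all UMIs of a band, each panel with its own scale from 0) taken by 4 gene lists in barcodes of 1000 to 3000, 3000 to 10000 and at least 10000 UMIs (x axis), with 1 line per library. The share of the rRNA-overlap genes falls from 11.8%, 8.52% and 7.64% to 1.38%, 0.979% and 0.778%, while the mt- share is highest in deep barcodes. Malat1 makes up most of the share of the nuclear long noncoding RNAs.

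The clustered histone genes, whose messenger RNAs are made in S phase to package new DNA, were higher in shallow barcodes as a group. Of 67 measured, 56 were tested, 46 were called higher and none lower, and 38 of the 46 were up by 2-fold or more. All 56 had a positive log2 fold change, from 0.02 (Hist4h4) to 2.77 (Hist1h2br), with a median of 1.27. In 40 of them all 3 shallow sums lay above all 3 deep sums. Many of these genes are near-identical copies, so the level of any single copy is uncertain.

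Hist1h4d stood at 348, 393 and 464 CPM in the shallow sums of Types I, II and III and at 150.4, 117 and 150.1 CPM in the deep sums. Hist1h1e stood at 221, 263 and 256 CPM in shallow sums and at 92.0, 88.9 and 65.5 CPM in deep sums. Hist1h3c stood at 179, 150 and 168 CPM in shallow sums and at 64.6, 42.6 and 54.9 CPM in deep sums. None of the 3 genes overlapped between bands, and the ratio of shallow to deep was higher in Types II and III than in Type I for all 3. Their log2 fold changes were 1.52, 1.57 and 1.64 (adjusted p 1.3e-35, 3.7e-37 and 2.3e-40). Hist1h1d at 1.89, Hist1h1c at 1.51, Hist1h3e at 1.26 and Hist1h1b at 0.99 were the other 4 clustered histone genes among the 12 most raised. The lowest values were 0.02 for Hist4h4 and 0.17 for Hist1h2ac, neither of which was called.

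Clustered histone genes with and without a motif match had similar medians. A short annotated model that lacks the 3' untranslated region, as that of Hist1h4k may, could not match. The split below therefore cannot show whether the stem-loop matters, which was not tested. Of the 38 tested genes with the motif, 29 were higher with a median log2 fold change of 1.27, and of the 18 without it in the chosen transcript, 17 were higher with a median of 1.28. H2afx, the DNA damage-marking H2A variant, also carried the motif but fell (log2 -0.32, adjusted p 0.0092). It was the only gene called among 11 replication-independent histone genes, whose messenger RNAs are usually polyadenylated. The median of those 11 was -0.00, and H2afz, the H2A.Z variant, was at 0.17 without passing the test. H2afx lost its call without Type I and without Type III.

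The share of UMIs from all clustered histone genes was 0.170%, 0.171% and 0.255% in shallow barcodes and 0.0932%, 0.0780% and 0.106% in deep ones. It was already at 0.150%, 0.145% and 0.262% in the barcodes between the bands. Genes of S phase that are not histones did not move with them: of 20 replication genes such as the Mcm helicase subunits, 0 were higher and 2 lower, with a median of 0.01. Without shared barcodes 37 of 53 histone genes were higher, and against the deep band of 10000 to 30000 UMIs 4 of 52 were, with a median of 0.80.

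**Figure D2:**
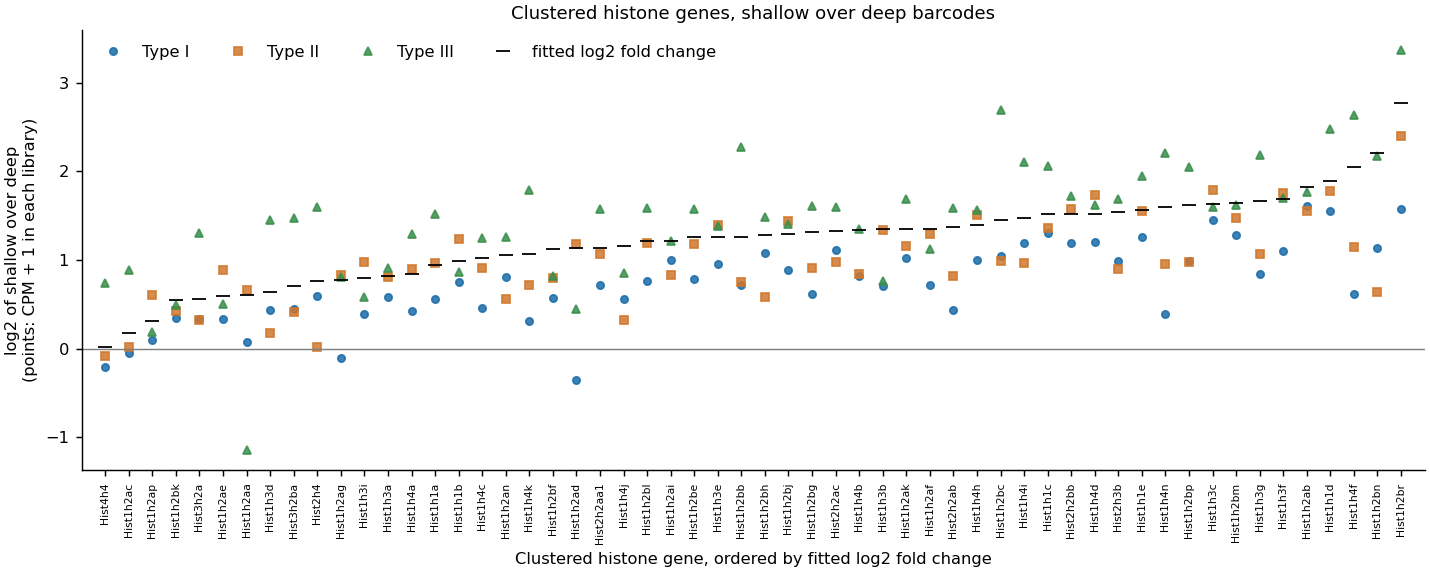
Log2 ratio of shallow over deep sums (y axis) for the 56 clustered histone genes tested (x axis, ordered by fitted value), with 1 point per library and a bar for the fitted log2 fold change. All 56 bars lie above 0, from 0.02 to 2.77, and Type III points are often the highest.

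Among nuclear-retained long noncoding RNAs, 9 of the 16 tested fell in shallow barcodes and 0 rose. In 9 of the 16 all 3 shallow sums were below all 3 deep sums. The median log2 fold change of the list was -0.46, and -0.26 without Type I. Several of these genes lie antisense to or inside other genes, and the sources used here do not say whether the counting used strand or introns, so such reads cannot be told apart from those of a partner gene.

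Kcnq1ot1, the antisense RNA that silences an imprinted gene cluster on chromosome 7, stood at 100.1, 67.2 and 64.7 CPM in the shallow sums of Types I, II and III. In the deep sums it stood at 247, 240 and 197 CPM, all above the shallow values. The log2 fold change was -1.58 with SE 0.0975 and adjusted p 8.5e-34, and no other member changed by 2-fold. Meg3, an imprinted noncoding RNA of chromosome 12, stood at 404, 280 and 237 CPM in shallow sums and at 699, 569 and 418 CPM in deep sums. The groups did not overlap, although the lowest deep value (Type III) was close to the highest shallow value (Type I). Meg3 fell by 0.88 (SE 0.0946, adjusted p 2.1e-14), and Rian, from the same imprinted cluster, fell by 0.55 (adjusted p 9.7e-07).

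Neat1, the scaffold of paraspeckles, stood at 22.6, 18.4 and 24.8 CPM in shallow sums and at 38.4, 40.9 and 47.5 CPM in deep sums, and fell by 0.97 (adjusted p 3.8e-12). Tsix fell by 0.85, Airn by 0.78 and Dleu2 by 0.71. Snhg11 at -0.38 and Mirg at -0.33 passed the test too, but each lost its call without Type I, without Type II and without shared barcodes, and Snhg11 also without Type III. Airn lost its call without Type II, and Dleu2 without Type I.

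Malat1, the most abundant member, behaved differently in sums and in single barcodes. Its sums were 6082, 5717 and 6660 CPM in shallow and 7512, 6677 and 6785 CPM in deep barcodes. The shallow sum was lower in every library but by little, and the log2 fold change of -0.19 (SE 0.124) did not pass the test (adjusted p 0.388). With plain totals in place of TMM scaling it was -0.30 and passed (adjusted p 0.0014). The median Malat1 share of a barcode's UMIs was 0.290%, 0.360% and 0.236% in shallow barcodes, 0.121%, 0.194% and 0.116% in the barcodes between the bands, and 0.605%, 0.583% and 0.541% in deep barcodes. The barcodes between the bands thus had the lowest median, not a middle one. By mean CPM, 12 of the 16 RNAs were lower there than in either band. The summed share of the 18 listed RNAs was 0.683%, 0.569% and 0.736% in shallow barcodes, 0.653%, 0.610% and 1.04% between the bands and 0.919%, 0.816% and 0.832% in deep ones, so Type III was highest between the bands. Malat1 alone took 0.594%, 0.509% and 0.675% of shallow UMIs, 0.578%, 0.554% and 0.965% between the bands and 0.769%, 0.688% and 0.724% of deep UMIs. The summed share was thus mostly Malat1.

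Messenger RNAs known for retained introns or nuclear detention, most of them splicing factors and their kinases, moved less. Of 30 tested, 9 were lower and 1 was higher, with a median of -0.12. Nktr fell by 0.55, Luc7l2 by 0.47 and Pnisr by 0.41, while Srsf5 was higher by 0.31 (adjusted p 0.0100) and lost that call without Type II, without Type III and without shared barcodes. Against the deep band of 10000 to 30000 UMIs, 2 of the 16 noncoding RNAs were called lower, Kcnq1ot1 and Neat1, and the list's median was -0.42. Without shared barcodes 7 of 16 were lower.

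The 13 mt- genes encode subunits of the respiratory chain, and their summed level was limited by the rule itself, which removed barcodes over 20% mt- UMIs. Within that limit 10 were lower in shallow barcodes and 1 was higher, with a median of -0.54. In 9 of the 13 all 3 shallow sums were below all 3 deep sums. The mt- share of UMIs was 2.64%, 2.92% and 2.83% in shallow barcodes, 2.17%, 3.05% and 2.36% between the bands, and 4.35%, 4.87% and 4.64% in deep ones.

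mt-Cytb, the cytochrome b subunit of complex III, stood at 2114, 2559 and 2414 CPM in the shallow sums of Types I, II and III and at 4065, 4477 and 4032 CPM in the deep sums. mt-Co1, the catalytic subunit of complex IV, stood at 3540, 4024 and 3830 CPM and at 6232, 6431 and 6952 CPM. Neither gene overlapped between bands, and their log2 fold changes were -0.83 and -0.78 with adjusted p 2.4e-09 and 1.2e-07. The complex I genes mt-Nd1 and mt-Nd4 fell by 0.72 and 0.71. mt-Co2, mt-Nd4l, mt-Co3, mt-Nd2, mt-Atp6 and mt-Nd3 fell by between 0.63 and 0.34.

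mt-Nd6 was the exception. It is the only mt- protein gene on the light strand, opposite the end of mt-Nd5. It stood at 50.2, 61.3 and 38.1 CPM in shallow sums and at 43.3, 42.2 and 26.5 CPM in deep sums, higher in shallow in each library although the groups overlapped across libraries. Its log2 fold change was 0.41 (SE 0.0991, adjusted p 0.0016), and this call was lost without Type II and without shared barcodes. mt-Atp8 at 0.06 and mt-Nd5 at -0.21 were not called.

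The direction of the mt- genes depended on the limit on mt- UMIs. With no limit the median over the 13 genes was 0.31, with 4 higher and 0 lower, and with a limit of 10% it was -0.91, with 11 lower. The limit removed 107, 323 and 87 barcodes of 1000 to 3000 UMIs and at least 500 genes from Types I, II and III, with median mt- shares of 34.3%, 30.4% and 34.5%. The calls of mt-Co3, mt-Atp6 and mt-Nd3 were also lost without Type I, and those of the same genes with mt-Co1, mt-Co2 and mt-Nd2 without Type III. Without shared barcodes 7 of 13 were lower, and against the deep band of 10000 to 30000 UMIs 1 was.

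**Figure D3:**
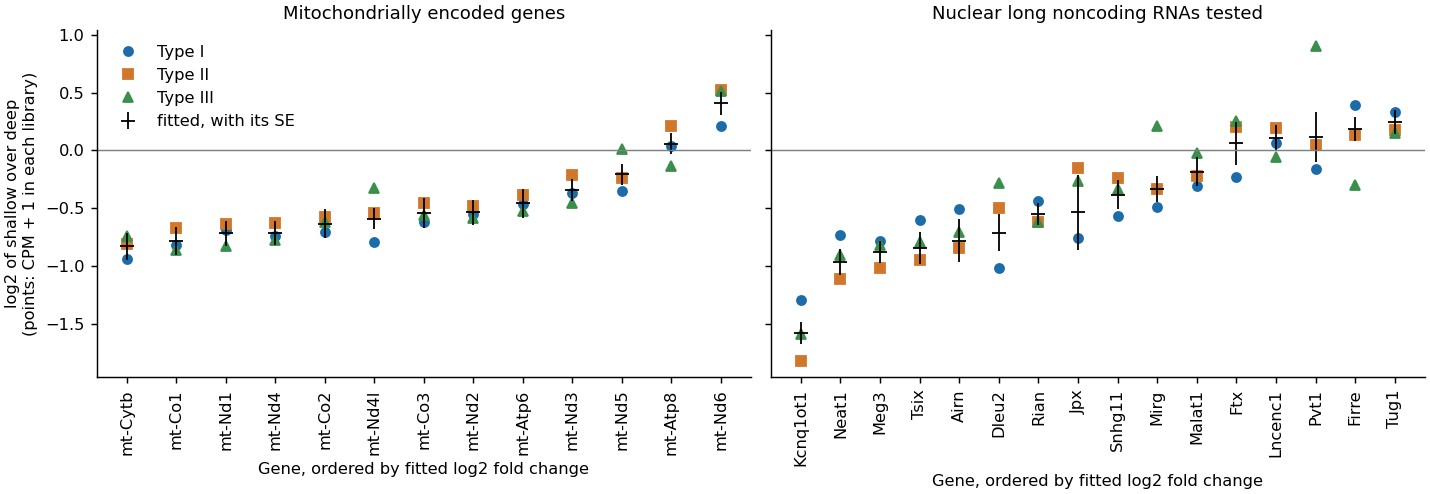
Log2 ratio of shallow over deep sums (y axis) for the 13 mt- genes (left) and the 16 nuclear long noncoding RNAs tested (right), with 1 point per library and the fitted log2 fold change with its standard error. Most points lie below 0, Kcnq1ot1 is lowest at -1.58, and mt-Nd6 lies above 0 in all 3 libraries.

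Nuclear-encoded genes of the respiratory chain did not follow the mt- genes. Of 30 tested, 3 were higher and 0 lower, with a median of 0.07. The 3 were Ndufa6 at 0.29, Ndufb10 at 0.27 and Ndufb7 at 0.27, all complex I subunits. Each of these calls was lost without Type II, without Type III or without shared barcodes. Of 75 mitochondrial ribosomal protein genes 1 was higher (Mrps22, 0.36) and 0 lower, and that call was lost without Type I, without Type II and without shared barcodes.

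Cytoplasmic ribosomal protein genes, the most abundant list, differed little between shallow and deep sums. Their share was 29.6%, 35.1% and 31.8% of shallow UMIs and 33.8%, 33.9% and 33.8% of deep UMIs, so the shallow libraries lay on both sides of the deep ones. Of 79 genes tested 1 was higher and 0 lower, with a median of 0.04. Per library, the median log2 ratio of the 79 genes was -0.12 in Type I, 0.26 in Type II and -0.00 in Type III.

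Other translation genes were similar. Of 18 translation factors 1 was higher, Eif4b, an initiation factor that assists the eIF4A helicase, at 0.38 (adjusted p 0.0013), a call lost without shared barcodes. Of 18 ribosome biogenesis genes 2 were lower, the nucleolar proteins Nolc1 at -0.48 and Tcof1 at -0.37. The call of Tcof1 was lost without Type II and without Type III. Of 9 small nucleolar RNA host genes none was called, with a median of 0.07.

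Lineage RNA was present in both bands, and single markers differed in both directions. Primitive endoderm genes had 7 of 16 lower and 3 higher, with a median of -0.12. The lower ones were genes of the basement membrane that primitive endoderm secretes (Col4a2, Sparc, Col4a1, Lamb1, Lama1 and Lamc1) and the receptor gene Pdgfra, whose call was lost without Type I and without Type II. Col4a2 stood at 334, 265 and 241 CPM in the shallow sums of Types I, II and III and at 598, 471 and 310.5 CPM in the deep sums. It was lower in shallow in every library, least in Type III (log2 -0.71, SE 0.0944, adjusted p 6.5e-10).

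The transcription factor gene Sox17 went the other way, at 99.7, 89.3 and 91.3 CPM in shallow sums and 74.3, 63.6 and 43.4 CPM in deep sums. Its groups did not overlap (log2 0.58, SE 0.0918, adjusted p 2.6e-07). Hnf4a at 0.51 and Dab2, an endocytic adaptor, at 0.45 were also higher, Hnf4a not without Type I and Dab2 not without Type III. Gata6 at -0.10 and Gata4 at 0.01, which specify the lineage, were not called. Without shared barcodes 3 of the 16 were higher and 1 lower, and the median became 0.05. Of the lower genes only Col4a2 kept its call then. Against the deep band of 10000 to 30000 UMIs the median was 0.04 and no member was called.

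Visceral endoderm genes, which mark the absorptive layer made from primitive endoderm, had 5 of 16 lower and 0 higher, with a median of -0.12. Lrp2 (megalin) fell by 0.70 and Cubn (cubilin), its partner in uptake, fell by 0.57, and both calls were lost without shared barcodes. Ttr, a thyroid hormone carrier, at -0.05 and Apoe at -0.23 were not called.

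Naive epiblast genes had 4 of 16 lower and 0 higher, with a median of -0.12. Utf1 at -0.58, Fgf4 at -0.56, Tdgf1 at -0.48 and Sox2 at -0.44 were lower. Sox2 stood at 31.3, 52.3 and 42.6 CPM in shallow sums and at 45.5, 60.9 and 76.9 CPM in deep sums, lower in shallow within each library but overlapping across libraries. Nanog at -0.23 and Pou5f1 at -0.07 were not called, and Nanog passed when Type II was left out. Fgf4 lost its call without Type I and without Type III. Primed epiblast genes, which mark the later epiblast, had 5 of 10 lower and 0 higher, with a median of -0.43. Nodal, a TGF-beta family signal, stood at 8.89, 16.8 and 15.1 CPM in shallow sums and at 19.6, 32.0 and 30.8 CPM in deep sums, with no overlap (log2 -1.01, adjusted p 4.3e-10). Zic2 at -0.78, Otx2 at -0.62, Fgf8 at -0.62 and Pou3f1 at -0.47 were the others. Zic2, Fgf8 and Pou3f1 lost their calls without Type II.

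Trophectoderm genes had 3 of 19 higher and 3 lower, with a median of 0.04. The homeobox genes Rhox9 at 0.70 and Rhox6 at 0.60 and the transcription factor gene Gata2 at 0.51 were higher. The tight junction gene Cldn4 at -0.59 and the transcription factor gene Gata3 at -0.54 were among the lower ones. Rhox9 stood at 48.9, 52.7 and 109 CPM in shallow sums and at 34.6, 39.3 and 38.8 CPM in deep sums, so its rise was largest in Type III. Cdx2 at 0.29 and the keratin gene Krt8 at 0.11 were not called. Rhox6, Gata2 and Gata3 lost their calls without shared barcodes. Rhox6 lost its call without Type III, and Gata3 without Type II and without Type III.

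Markers of other cells were scarce. Of 12 blood and endothelium genes 7 were tested, and the embryonic globins Hba-x (log2 4.19) and Hbb-bh1 (2.43) were higher. Their UMIs numbered 70, 88 and 1 for Hba-x in the shallow sums of Types I, II and III and 113, 26 and 0 in the deep sums. Type III had too few of these UMIs to show a change. DESeq2 called 0 genes of the list. Ptprc, the pan-leukocyte gene, had 0 UMIs in all 6 sums. Of 8 fibroblast genes 1 was tested and it was not called.

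Summed levels say little about how lineage RNA was spread over barcodes, so each barcode was thinned to 1000 UMIs and its UMIs from each list were counted. Primitive and visceral endoderm UMIs per 1000 had means of 12.7, 10.8 and 7.83 in shallow barcodes and 15.9, 14.7 and 6.19 in deep ones, in the order Type I, II and III. The medians were 11, 10 and 5 in shallow and 7, 4 and 1 in deep barcodes, higher in shallow barcodes in all 3 libraries, whereas the mean was higher in shallow barcodes in Type III alone. In Types I and II, deep barcodes split into many with few endoderm UMIs and others with many, while shallow barcodes formed a single hump. Most deep barcodes of Type III had few endoderm UMIs.

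The variance over the mean, which is 1 for counts that vary only by chance sampling, was 5.23, 3.21 and 8.25 for the endoderm lists in shallow barcodes. It was 12.7, 9.89 and 14.6 between the bands and 17.9, 18.7 and 21.9 in deep barcodes. For the naive epiblast list it was 1.60, 1.30 and 1.66 in shallow barcodes, 2.72, 2.57 and 2.93 between the bands and 4.51, 4.17 and 3.93 in deep ones. The order of the bands was the same in all 3 libraries. For the trophectoderm list without Krt8 and Krt18 it was 2.13, 1.78 and 2.65 in shallow and 4.03, 4.34 and 3.81 in deep barcodes. Without shared barcodes the shallow epiblast values were 1.36, 1.26 and 1.66 and the shallow endoderm values 4.74, 2.88 and 7.56, so 5 of these 6 values were lower without shared barcodes, and the Type III epiblast value stayed at 1.66. Mean epiblast UMIs per 1000 were 1.92, 2.83 and 2.36 in shallow and 2.25, 2.63 and 3.53 in deep barcodes. How much of the shallow barcodes' RNA was free RNA was not tested.

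**Figure D4:**
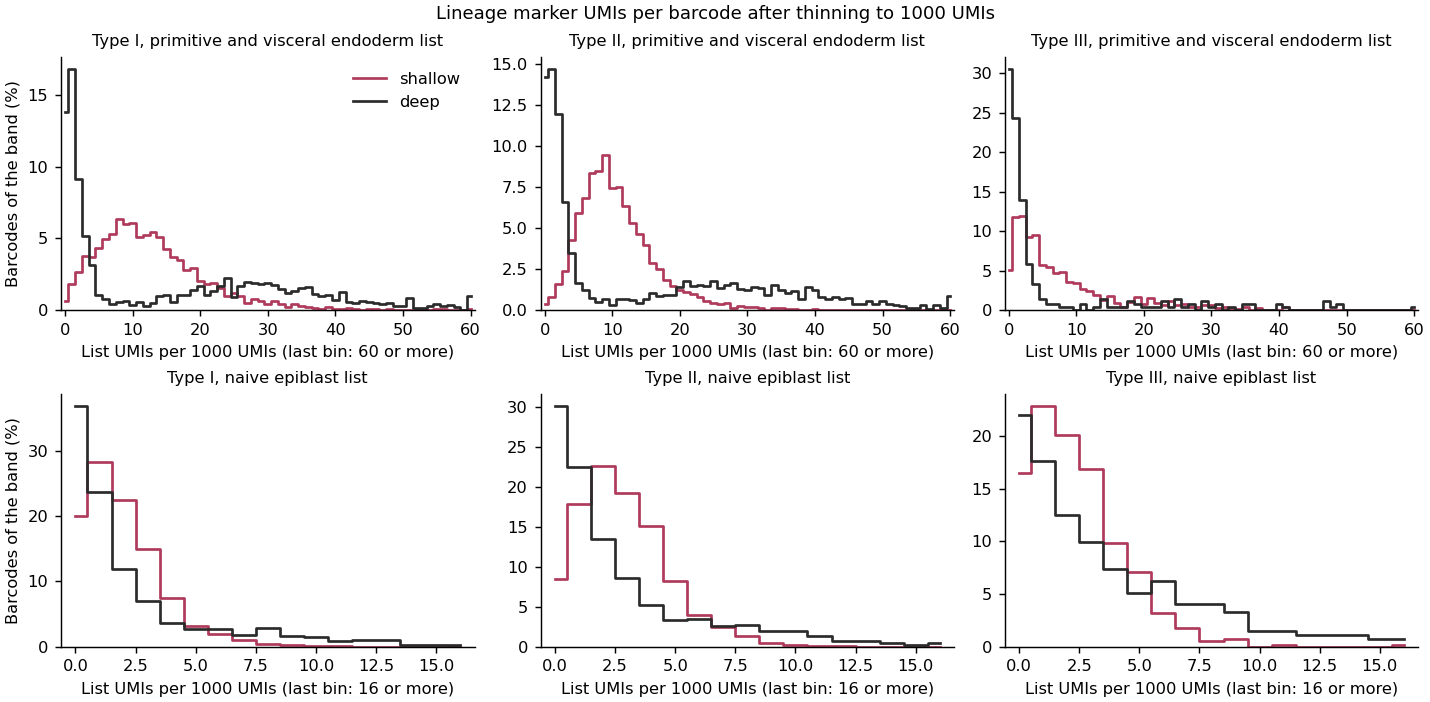
Share of a band's barcodes (y axis, percent) by number of primitive and visceral endoderm UMIs (top) or naive epiblast UMIs (bottom) after thinning each barcode to 1000 UMIs (x axis, the last bin open), for shallow and deep barcodes of each library. Deep barcodes pile up near 0, with a second broad hump of high endoderm counts in Types I and II, while shallow endoderm UMIs centre on medians of 11, 10 and 5.

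A barcode was put in a lineage class by its UMIs per 1000. That lineage needed at least 3, and at least 3 times those of each other lineage. The shares of barcodes in the classes differed between the bands. The epiblast class held 1.36% (95% exact binomial interval 0.977 to 1.84), 0.855% (0.622 to 1.15) and 5.91% (4.25 to 7.96) of shallow barcodes. It held 16.4% (14.5 to 18.4), 18.8% (17.1 to 20.6) and 35.7% (30.0 to 41.7) of deep barcodes. The intervals, which cover counting error only, did not meet in any library. Of the shallow epiblast-class barcodes, 30 of 41 in Type I and 24 of 44 in Type II carried a barcode also found in another library, against 0 of 40 in Type III. The endoderm class held 76.0%, 62.4% and 41.1% of shallow and 53.2%, 48.9% and 23.9% of deep barcodes. Barcodes with UMIs of several lineages and no leader were 19.5%, 35.3% and 38% of shallow and 9.11%, 12.9% and 11% of deep barcodes. These classes are ranges of a score and not cell types. Since the epiblast class also depends on a barcode's endoderm UMIs, the shares do not show which cells the bands held.

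Endoplasmic reticulum and secretory genes were lower in shallow barcodes or not called, with 6 of 16 lower, 0 higher and a median of -0.19. Hsp90b1, the chaperone of the endoplasmic reticulum lumen, stood at 304, 279 and 238 CPM in the shallow sums of Types I, II and III and at 539, 519 and 439 CPM in the deep sums. Its groups did not overlap, and it fell by 0.87 (SE 0.0933, adjusted p 2.4e-14). The disulfide isomerase gene Pdia4 fell by 0.64 and the chaperone gene Hspa5 by 0.59, the latter not without shared barcodes.

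Immediate-early and heat shock genes, which tissue dissociation is known to raise, had 5 of 19 lower and 2 higher, with a median of -0.14. Fos, the classical immediate-early gene, stood at 11.9, 16.1 and 16 CPM in shallow sums and at 18.6, 28.6 and 47.4 CPM in deep sums, with no overlap (log2 -0.89, adjusted p 1.8e-08). Egr1 was lower by 0.47 on the log2 scale. Hspa1a, an inducible heat shock chaperone, was higher in the fit at 0.67 (adjusted p 0.0022) but not in Type II, and it lost its call without Type I and without shared barcodes. Of 13 p53 pathway genes 0 were higher and 2 lower, Cdkn1a at -0.55 and Trp53 itself at -0.55, while the median of the list was 0.14 and 8 of the 13 had a positive fold change.

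Mitotic genes had 5 of 20 higher and 1 lower, with a median of 0.11. Kif11, a spindle motor, was at 0.44, Ccnb1, the mitotic cyclin B1, at 0.41 and Cdc20, the activator of the anaphase-promoting complex, at 0.38. Aurka at 0.35 and Birc5 at 0.29, both mitotic regulators, were the other higher genes, and Cenpf at -0.33 was the lower one. Kif11, Aurka, Birc5 and Cenpf lost their calls without Type II, Aurka also without Type I, and Birc5 and Cenpf also without Type III.

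Genes with long transcripts were more often lower in shallow barcodes. Of 794 protein-coding genes with transcripts of up to 1000 nucleotides, 83 (10.5%) were higher and 27 (3.40%) lower, with a median of 0.07. Of 613 genes with transcripts over 8000 nucleotides, 9 (1.47%) were higher and 104 (17.0%) lower, with a median of -0.16. Across 12327 protein-coding genes Spearman's rho of fold change with transcript length was -0.12, and with GC content it was -0.04. These are descriptions across genes, which are not independent replicates and share the 6 sums. Of 208 genes annotated as antisense, 30 (14.4%) were higher and 6 lower. Of 340 protein-coding genes with a single exon, 59 (17.4%) were higher and 30 (8.82%) lower. The clustered histone genes, 46 of them called higher, are included in these counts. Most have short transcripts and many a single exon, so they add to the higher side of both bins. The counts were not repeated without them.

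**Figure D5:**
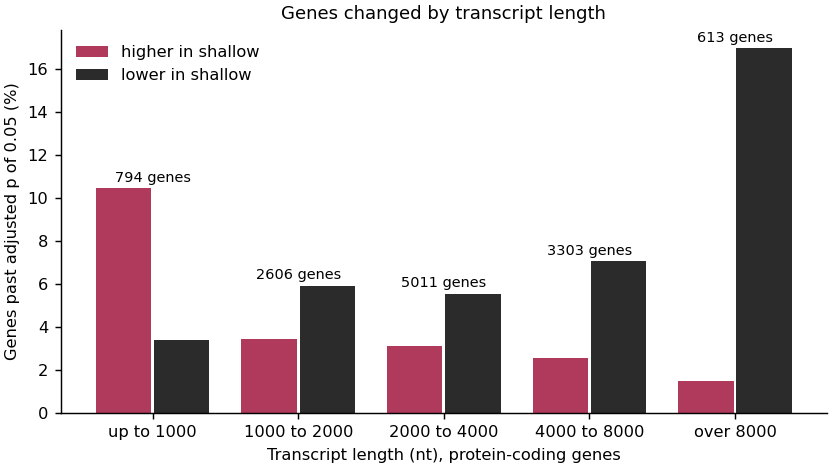
Percent of protein-coding genes called higher or lower in shallow barcodes (y axis) by length of the chosen transcript in nucleotides (x axis), with the number of genes above each pair of bars. The lower share is 17.0% in the longest bin and 3.40% in the shortest, and the higher share runs from 10.5% in the shortest bin to 1.47% in the longest. Clustered histone genes, most of them short, are included.

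Because the class shares differed between the bands, the comparison was repeated within the endoderm class. It held 2292, 3211 and 278 shallow and 747, 974 and 65 deep barcodes in Types I, II and III. Of 11009 genes tested, 1534 (13.9%) were higher and 1678 (15.2%) lower in shallow barcodes, and with plain totals 784 and 2606. The epiblast and trophectoderm classes had fewer than 50 shallow barcodes in each library and could not be fitted. Since the class was drawn from endoderm, epiblast and trophectoderm UMIs, the genes of those lists are not read as results here.

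Within the class the lineage RNA of the bands still differed, in many cases in lists that the class rule used. The rule bears on the naive epiblast, endoderm and trophectoderm values, which are given as a description only. In the shallow barcodes of the class, naive epiblast genes had 12 of 15 higher (median 1.37) and trophectoderm genes 15 of 19 (median 1.16). Primitive endoderm genes had 13 of 16 lower (median -0.88) and visceral endoderm genes 16 of 16 lower (median -0.80). Streak and mesoderm genes, a list that shares Eomes with the trophectoderm list, had 3 of 4 higher (median 1.30). Of lists that the rule did not use, primed epiblast genes had 5 of 9 higher (median 0.58) and genes of the 2-cell stage 2 of 2 (median 5.08). The 2-cell list was scarce, with 71, 197 and 42 UMIs in the full shallow sums of Types I, II and III. Over all barcodes 1 of its 4 tested genes was called, and that gene was lower. How far these differences in lineage RNA bear on the changes below was not tested.

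The main groups kept their direction within the endoderm class. Clustered histones had 44 of 47 higher (median 1.57), and the 4 rRNA-overlap genes were all higher (median 2.78). Nuclear noncoding RNAs had 8 of 16 lower and 0 higher (median -0.75). The mt- genes had 11 of 13 lower and 1 higher (median -0.72). Over all barcodes the direction of the mt- genes depended on the limit on mt- UMIs. The class barcodes met the same limit, and the class was not fitted without it. Ribosomal protein genes had 24 of 79 higher and 0 lower (median 0.24), translation factors 8 of 18 higher (median 0.25) and small nucleolar RNA hosts 8 of 9 higher (median 0.71). Secretory genes had 12 of 16 lower (median -0.43). Genes of S phase other than histones had 11 of 20 higher and 0 lower (median 0.29), in contrast to 0 higher over all barcodes, a difference that was not tested. The median over all genes in this class was -0.02.

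Outside the lists used for the class, the 5 most lowered genes with at least 50 CPM there were Kcnq1ot1 at -1.81, Lpar1, a lysophosphatidic acid receptor, at -1.49, Ankrd12 at -1.44, Nrg1, a ligand of ErbB receptors, at -1.41 and Meg3 at -1.33. The 5 most raised were AY036118 at 4.45, Gm42418 at 2.86, Gm26917 at 2.70, Lars2 at 2.65 and Trh at 2.14. Trh, which encodes the thyrotropin-releasing hormone precursor, stood at 37.0, 87.9 and 55.3 CPM in shallow and at 12.5, 14.8 and 12.3 CPM in deep endoderm-class barcodes. Over all barcodes its log2 fold change was -0.70, the opposite direction, and the lineage RNA of the bands still differed within the class as given above.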

How the data were processed

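The authors deposited raw UMI counts, in 1 matrix of 32285 genes per library. Per the file headers these came from Cell Ranger 6.0.1, and per the submitters' processing notes the build was mm10. The deposited barcode and gene name files hold names only (other). How barcodes were called, and whether introns and strand were used, was not given in the sources used here, and no doublet caller was run. Counts were summed per library and band and tested with edgeR 4.0.16 (TMM scaling, filterByExpr, glmQLFit, library as block, Benjamini-Hochberg at 0.05, R 4.3.3). The block is the library, since both bands of a type come from the same tube. Tests were checked on simulated data drawn from 1 pooled deep profile with the same dispersion for every gene. That check held no differences in profile between libraries, so it does not cover those seen here. With 3 pairs an exact permutation test cannot go below 0.25, so none was used. Named genes were the 12 highest and lowest with at least 50 CPM, the extremes of each of 29 lists and fixed lineage genes, of which a selection is printed, and some genes that meet the rule are left out. Members and lists were chosen with earlier results of these data known, and both alternatives that leave out shared barcodes after seeing the overlap. Per-library log2 ratios use CPM + 1. Shares of lists are of plain counts. Transcripts, coordinates and sequences are from GENCODE M21 (GRCm38, the assembly of mm10), with 99.9% of tested genes matched. Alternatives used DESeq2 1.42.0.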

Additional observations from a re-analysis of the deposited data

Results flagged for a closer look

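In 5 of the 115 genes followed across the alternatives the libraries moved in opposite directions by at least 0.2 on the log2 scale, and these differences between libraries were not tested. Hist4h4 was at -0.20 in Type I and 0.74 in Type III. Firre, a nuclear noncoding RNA of the X chromosome, was at 0.39 in Type I and -0.30 in Type III. Gata6 was at -0.29 in Type II and 0.43 in Type III, Hspa1a at -0.23 in Type II and 1.22 in Type III, and Mirg at -0.49 in Type I and 0.21 in Type III.

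The rRNA-overlap genes were also abundant in barcodes that entered neither band. They took 13.2% and 6.47% of UMIs in barcodes under 1000 UMIs of Types I and III. In barcodes of 1000 to 3000 UMIs with over 20% mt- UMIs they took 7.86%, 6.16% and 4.43% in Types I, II and III, against 1.38%, 0.979% and 0.778% in deep barcodes.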

How the results depend on the processing

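The counts of higher and lower genes (470 and 840, and 110 and 81 at 2-fold) moved by more than 1.5 times under several alternatives, and the cause was not tested. Plain totals gave 180 higher, 1616 lower and 152 lower at 2-fold. DESeq2's Wald test gave 161, 308, 29 and 7 in the same order of 4 counts. With no filter on low counts 307 were higher. With no replicate block, which ignores that the bands of a library are paired, the counts were 36, 34, 32 and 6. Leaving out 1 library at a time gave 194 to 344 higher, 316 to 610 lower, 78 to 119 higher at 2-fold and 26 to 75 lower at 2-fold. A shallow band of 1000 to 2000 UMIs gave 313 higher, 517 lower and 52 lower at 2-fold, and one of 2000 to 3000 UMIs gave 254, 449, 72 and 50. A deep band of 10000 to 30000 UMIs gave 14, 14, 13 and 3. Thinning the deep sums to the shallow total gave 65 and 34 at 2-fold, and no limit on mt- UMIs gave 40 lower at 2-fold. Without shared barcodes the counts were 186, 343, 67 and 36. Within the endoderm class plain totals gave 784 higher and 2606 lower.

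Median log2 fold changes moved as follows. Nuclear noncoding RNAs had -0.60 with plain totals and -0.52 to -0.26 with 1 library left out. The rRNA-overlap genes had 1.79 against the deep band of 10000 to 30000 UMIs and 2.77 without shared barcodes. The mt- genes had -0.66 with plain totals, -0.65 against that deep band, -0.91 with a limit of 10%, -0.64 without shared barcodes and 0.31 with no limit. Histones had 0.80 against that deep band. Primitive endoderm genes had -0.25 with plain totals and turned to 0.041 against that deep band and 0.047 without shared barcodes. Trophectoderm genes turned to -0.21 with no replicate block and had 0.26 without shared barcodes.

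With no limit on mt- UMIs 11 mt- genes turned positive: mt-Cytb 0.13, mt-Co1 0.10, mt-Nd1 0.21, mt-Nd4 0.15, mt-Co2 0.28, mt-Nd4l 0.27, mt-Co3 0.37, mt-Nd2 0.31, mt-Atp6 0.41, mt-Nd3 0.45 and mt-Nd5 0.57. Against the deep band of 10000 to 30000 UMIs the sign turned for mt-Nd6 (-0.060), Sparc (0.13), Cubn (0.15), Hspa1a (-0.44) and Cenpf (0.12). Of 115 genes followed, 115 kept their direction and their side of the threshold with DESeq2's size factors in edgeR and with a deep band from 20000 UMIs, 44 with no replicate block and 33 against that deep band. The Type III shallow sum, at 1113175 UMIs, limits what can be seen for low genes.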
